A study of Mus musculus with 16 samples.

Results

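The 33 genes described here encode enzymes that make purine and pyrimidine nucleotides in mouse cells. They were chosen by name from the 40840 genes counted in each library, and all 33 passed the filter of at least 10 counts over all libraries. Of them, 11 belong to de novo purine synthesis, 5 to de novo pyrimidine synthesis, 5 to deoxynucleotide synthesis, 2 are nucleoside diphosphate kinases, 6 are salvage enzymes and 4 belong to the pentose phosphate pathway. RNA was sequenced from a mouse hepatoblast line (a liver progenitor line) that lacks p53 and overexpresses Myc, written p53-/-; Myc, and that forms tumors in nude mice. Cells received sorafenib at 8.5 µM, a multikinase inhibitor used against hepatocellular carcinoma and known to impair mitochondrial respiration, or its vehicle DMSO. Treatment lasted 48 hours or 7 days, which gave 4 groups of 4 libraries and 16 libraries in all. Loss of p53 and overexpression of Myc were shared by all 4 groups, so no group shows these genes in cells with normal p53 or Myc. Nothing in the labels says that the replicates came from separate cultures, and p-values therefore measure only the spread between these libraries. The comparisons ask how the RNA of each enzyme differed between drug and vehicle at each time, and whether that difference changed between 48 hours and 7 days.

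De novo purine synthesis builds the purine ring on phosphoribosyl pyrophosphate, a sugar phosphate drawn from the pentose phosphate pathway, and ends in AMP and GMP. De novo pyrimidine synthesis builds the ring before the sugar is added, and its dihydroorotate dehydrogenase (Dhodh) sits in the inner mitochondrial membrane and passes electrons to the respiratory chain. Ribonucleotide reductase turns ribonucleotides into deoxyribonucleotides for DNA, while salvage enzymes recycle free bases and nucleosides.

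Total counts ranged from 16586254 to 30828427 per library, and the 33 genes had between 237 and 22383 raw counts in any library. Normalized counts below are raw counts scaled for library size and composition to a common library, and log2 fold changes are sorafenib against DMSO with standard errors (SE). A gene is called changed at an adjusted p under 0.05 (edgeR quasi-likelihood test, Benjamini-Hochberg over 20444 genes). In bulk RNA, fewer cells with a transcript and less of it per cell cannot be told apart. Reads were counted on Trp53 in every library, at 1766 to 4147 normalized counts, and the deleted stretch is not given in the sources used here, so these counts do not check the knockout. Among the hepatoblast markers, Hnf4a had no count in any library, Alb had 3 counts in all libraries together and mean Afp did not exceed 9.45 normalized counts, while Dlk1 reached a mean of 32234 in DMSO at 48 hours. Stellate cell and fibroblast genes were abundant in sum. The summed level of 6 markers was 117997 to 120164 in DMSO and 183225 to 198630 in sorafenib libraries at 48 hours. At 7 days it was 110200 to 113842 and 124528 to 129183. The single markers did not all follow these sums. Of the 5 tested, 2 were called higher and 2 lower at 48 hours (median log2 fold change -0.30). At 7 days 2 were higher and 3 lower (median -1.14). Of all tested genes, 54.6% were called at 48 hours and 56.8% at 7 days. The stellate marker Lrat had no count, and the summed levels of 5 endothelial and 7 blood markers stayed at or under 89.04 in every library. The summed level of the 11 hepatoblast markers was 34813 to 36176 in DMSO and 12242 to 14015 in sorafenib libraries at 48 hours, and 18309 to 20172 against 6041 to 6309 at 7 days. Most of the DMSO sum at 48 hours was Dlk1, so the sums do not describe each marker. Of the 9 hepatoblast markers tested, 1 was called higher and 5 lower at 48 hours, and 1 higher and 7 lower at 7 days. The part of such shifts in the results below was not tested.

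One library stood apart in its counts along the genome. In sorafenib 48 hours replicate 2, counts fell by 0.73 on the log2 scale, to 0.604 of the level elsewhere in that library, from Mycbp2 on chromosome 14 through chromosomes 15 to 19 and X, and the largest such step in any other library was 0.092 in size. Of the 33 genes, 9 lie in that stretch: Prps1, Prps2, Gart, Adsl, Umps, Ctps2, Rrm2b, Hprt and G6pdx. Their results are given with and without this library. The other 24 genes lie outside the stretch and are given with all libraries unless stated. Without this library, the 48 hour median log2 fold change of these 24 went from -0.08 to -0.10. Single values moved by differing amounts (Impdh1 -0.16 to -0.20, Impdh2 -0.25 to -0.30, Tk1 -0.47 to -0.52, Rrm2 -0.33 to -0.32).

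Sorafenib moved the nucleotide synthesis genes in both directions and did not lower them as a block. At 48 hours, 9 of the 33 were called higher and 15 lower, where 54.6% of all tested genes were called (26.9% higher and 27.7% lower). At 7 days, 6 were called higher and 17 lower, where 56.8% of all tested genes were called (28.9% higher and 27.9% lower). Without the library that stood apart, the counts were 10 higher and 16 lower at 48 hours and 7 higher and 21 lower at 7 days. The median log2 fold change over the 33 genes was -0.08 at 48 hours and -0.17 at 7 days, and -0.05 and 0.02 over all tested genes. The 48 hour median of the 33 genes lay between -0.12 and -0.17 when DMSO replicate 3 or 4 or sorafenib replicate 1, 3 or 4 was left out. All sorafenib libraries were above all DMSO libraries for 9 of the 33 genes at 48 hours and below them for 12, where 48.0% of all tested genes did not overlap (23.1% above and 24.9% below). At 7 days they were above for 6 and below for 22, where 56.8% of all tested genes did not overlap (28.5% above and 28.4% below).

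The 33 genes fell into patterns over time. Lower at both times were 10 genes (Impdh1, Rrm2, Tyms, Dut, Nme1, Aprt, Tk1, Uck2, Pgd and Tkt), and higher at both times were 6 (Pfas, Ctps, Rrm1, Rrm2b, Tk2 and Taldo1). A further 7 were called lower at 7 days without a call at 48 hours (Prps1, Ppat, Gart, Cad, Dhodh, Hprt and Dck), 5 were called lower at 48 hours without a call at 7 days (Paics, Impdh2, Umps, Ctps2 and G6pdx), and 3 were called higher at 48 hours without a call at 7 days (Atic, Gmps and Nme2). Prps2 and Adsl were called at neither time. The share of all tested genes with each of these patterns was not computed. Whether the patterns differ from those of other genes was therefore not tested. These patterns use all 16 libraries. The library that stood apart is not in the 7 day groups, but all libraries share an estimate of spread. Without it, Prps2, Adsl, Umps and G6pdx were called lower and Ctps2 higher at 7 days (edgeR adjusted p from 8.42e-07 to 0.00865). At 48 hours Adsl and Hprt were then called higher and Cad lower, and the call of Tk2 was lost. The difference between the 7 day and the 48 hour response, tested as an interaction of treatment and time, was called lower for 14 genes and higher for 5, where 36.8% of all tested genes had such a call (21.3% lower and 15.5% higher). Scaling by total counts alone gave 12 lower and 7 higher, and leaving out the library that stood apart gave 20 lower and 6 higher.

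**Figure D1:**
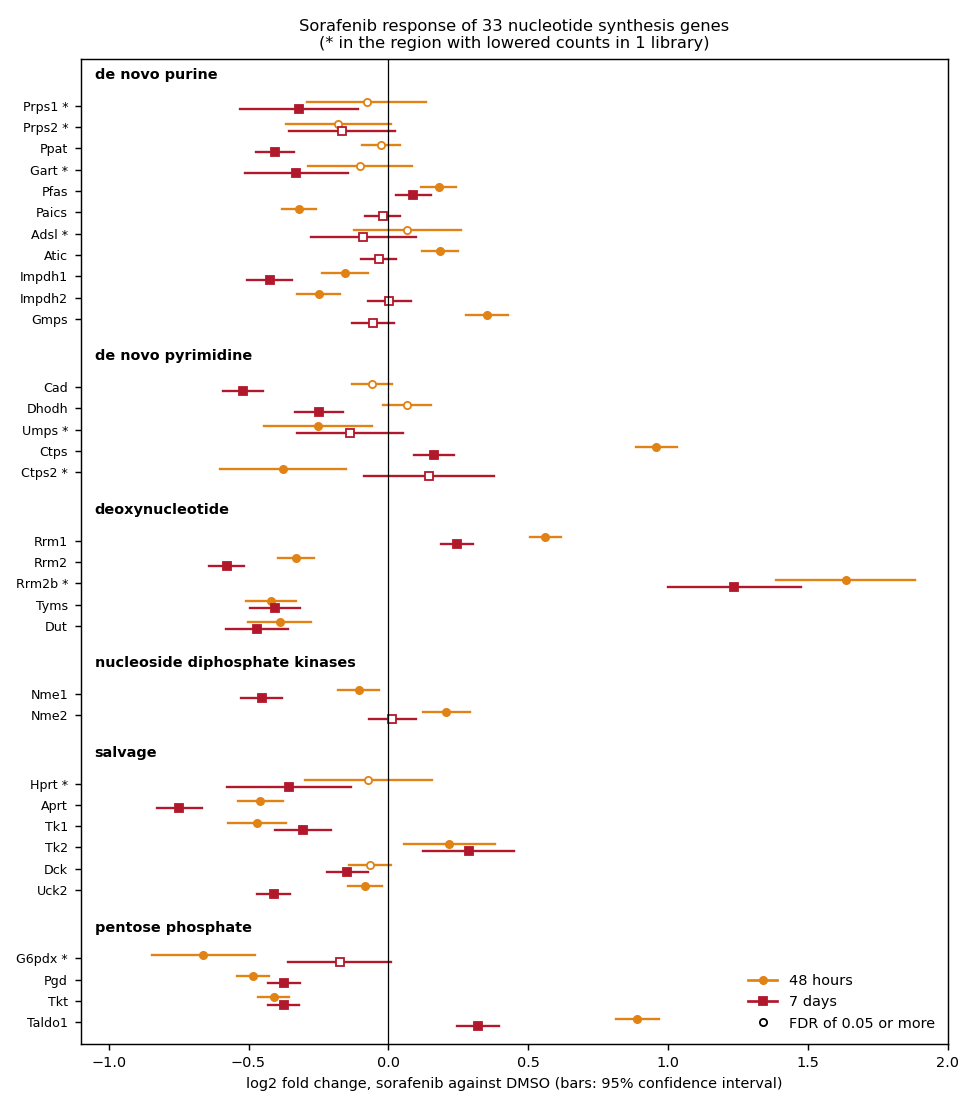
Log2 fold change of sorafenib against DMSO (x axis) for the 33 genes, grouped by pathway, at 48 hours (orange circles) and 7 days (red squares). Bars are 95% confidence intervals, filled symbols passed the adjusted p of 0.05, and asterisks mark the 9 genes in the stretch with lowered counts. Rrm2b, Ctps, Taldo1 and Rrm1 stand to the right at 48 hours, and Cad, Ppat and Aprt lie further left at 7 days than at 48 hours.

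De novo purine synthesis did not move together. Of its 11 genes, 3 were called higher (Pfas, Atic, Gmps) and 3 lower (Paics, Impdh1, Impdh2) at 48 hours, and 1 higher (Pfas) and 4 lower (Prps1, Ppat, Gart, Impdh1) at 7 days. Without the library that stood apart, these counts were 4 and 3 at 48 hours and 1 and 6 at 7 days, with Adsl then higher at 48 hours and lower at 7 days and Prps2 lower at 7 days. Their summed normalized counts were 48192 ± 566 in DMSO and 47079 ± 1300 in sorafenib libraries at 48 hours, and 53315 ± 410 and 48835 ± 570 at 7 days (SD, n = 4).

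Ppat encodes amidophosphoribosyltransferase, which catalyzes the committed step of the purine pathway. At 48 hours its normalized counts were 2605, 2655, 2596 and 2517 in the DMSO libraries and 2443, 2663, 2563 and 2519 in the sorafenib libraries. The 2 groups overlapped, with a log2 fold change of -0.03 (SE 0.033, adjusted p = 0.537). At 7 days the counts were 3393, 3511, 3493 and 3406 with DMSO and 2514, 2621, 2634 and 2652 with sorafenib. Every sorafenib library was then below every DMSO library, at a log2 fold change of -0.41 (SE 0.033, adjusted p = 1.29e-09). The 2 responses differed by -0.38 (SE 0.046, adjusted p = 1.71e-06). The sorafenib levels at the 2 times were close (means of 2547 and 2605), and the DMSO level was higher at 7 days than at 48 hours (log2 difference 0.41, SE 0.033, adjusted p = 1.86e-09).

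Paics, the adjacent gene, encodes a bifunctional enzyme of the middle of the pathway and responded the other way round in time. Its counts at 48 hours were 8942, 8817, 8766 and 8270 with DMSO and 6809, 7204, 6946 and 6934 with sorafenib, a separation of the groups with a log2 fold change of -0.32 (SE 0.029, adjusted p = 1.07e-08). At 7 days they were 7358, 7423, 7337 and 7191 with DMSO and 7085, 7329, 7196 and 7272 with sorafenib, which overlapped (log2 fold change -0.02, SE 0.029, adjusted p = 0.568). The interaction was positive for Paics (0.30, SE 0.042, adjusted p = 8.68e-06), opposite in sign to that of Ppat.

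Ppat (chr5:77061096-77099436, minus strand) and Paics (chr5:77099139-77116370, plus strand; both GRCm39, GENCODE) lie head to head, and their annotated 5′ ends overlap over 298 bases. Whether the counts used strand is not given in the sources used here, so reads in the overlap cannot be assigned to either gene. The windows around the 2 start sites, from 250 bases before to 50 bases after the start (RefSeq, GRCm38.p6), are shown because these neighbors differed in their response. Capitals mark matches to an E-box, the CACGTG motif bound by Myc, or to an E2F motif (TTTCGCGC, TTTGGCGC or TTTCCCGC), searched on both strands. The Ppat window (chr5:76951529-76951828, minus strand) held 2 E2F matches and no E-box, and the Paics window (chr5:76951052-76951351, plus strand) held 1 E-box and no E2F match. The 2 windows share no bases, so their matches could not overlap. Any part of these motifs in the 2 responses was not tested.
Ppat: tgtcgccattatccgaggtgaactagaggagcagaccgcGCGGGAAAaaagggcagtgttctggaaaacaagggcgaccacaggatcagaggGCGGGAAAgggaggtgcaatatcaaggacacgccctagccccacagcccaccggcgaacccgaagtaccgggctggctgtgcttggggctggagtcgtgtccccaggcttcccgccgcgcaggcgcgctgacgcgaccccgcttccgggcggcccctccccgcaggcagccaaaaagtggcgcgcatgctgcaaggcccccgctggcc
Paics: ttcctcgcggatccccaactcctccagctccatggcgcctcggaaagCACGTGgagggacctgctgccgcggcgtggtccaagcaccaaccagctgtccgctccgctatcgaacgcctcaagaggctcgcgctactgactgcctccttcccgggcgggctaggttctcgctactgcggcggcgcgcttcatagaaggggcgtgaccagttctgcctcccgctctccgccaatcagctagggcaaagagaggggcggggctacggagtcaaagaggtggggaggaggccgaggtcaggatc

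RefSeq start-site windows were found for 30 of the 33 genes, as 37 windows, and none for Pfas, Dhodh and Rrm2b. The E-box letters were in 6 of the 37 windows (16.2%), belonging to Paics, Atic, Impdh2, Tyms and Nme1, and in 7.15% of 32851 windows of the same length over all genes (8.80% of the windows of tested genes). Those 5 genes did not share a response: Paics, Impdh2, Tyms and Nme1 were called lower and Atic higher at 48 hours, and Tyms and Nme1 were called lower at 7 days. E2F letters were in 2 of the 37 windows (5.4%), those of Ppat and Prps2, and in 1.84% of all windows (2.84% of the windows of tested genes).

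Gart encodes the trifunctional enzyme of the early ring-building steps. Its counts were 6979, 6767, 6800 and 7007 with DMSO and 7056, 4552, 7155 and 6901 with sorafenib at 48 hours, where 4552 belongs to the library that stood apart. At 7 days they were 8574, 8678, 8734 and 8684 with DMSO and 6948, 6771, 6985 and 6883 with sorafenib. The 7 day groups did not overlap (log2 fold change -0.33, SE 0.088, adjusted p = 0.00322), and the interaction of -0.23 (adjusted p = 0.169) was called without that library (-0.36, adjusted p = 8.95e-13). Prps1, a phosphoribosyl pyrophosphate synthetase that supplies the sugar phosphate, gave a log2 fold change of -0.32 at 7 days (adjusted p = 0.0107), and at 48 hours -0.08 with all libraries and 0.07 without the low one, neither called. Its isozyme Prps2 gave -0.18 and -0.17 at the 2 times (adjusted p = 0.102 and 0.128), and -0.05 and -0.16 without that library.

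The branch to GMP split between its enzymes. Gmps, GMP synthetase, had 4384, 4567, 4335 and 4218 normalized counts with DMSO and 5577, 5946, 5527 and 5303 with sorafenib at 48 hours, with all 4 treated libraries above the controls (log2 fold change 0.35, SE 0.036, adjusted p = 4.42e-08). At 7 days it had 5896, 6139, 5923 and 5892 with DMSO and 5620, 5886, 5829 and 5616 with sorafenib, with no call (log2 fold change -0.06, adjusted p = 0.195). Impdh1 and Impdh2, the isozymes of IMP dehydrogenase at the step before Gmps, were both called lower at 48 hours (-0.16 and -0.25). At 7 days Impdh1 was lower still (-0.43, SE 0.039, adjusted p = 8.88e-09), while Impdh2 gave 0.00 (95% confidence interval -0.07 to 0.08).

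The remaining purine genes changed little. Pfas, which acts in the middle of the pathway, was called higher at both times (0.18 and 0.09). Atic, the bifunctional enzyme that closes the ring to IMP, was higher at 48 hours (0.18) and gave -0.04 at 7 days, a difference that was called (-0.22, adjusted p = 0.000361). Adsl, adenylosuccinate lyase, gave 0.07 and -0.09 (adjusted p = 0.57 and 0.424), and 0.20 and -0.09 without the low library, both then called.

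**Figure D2:**
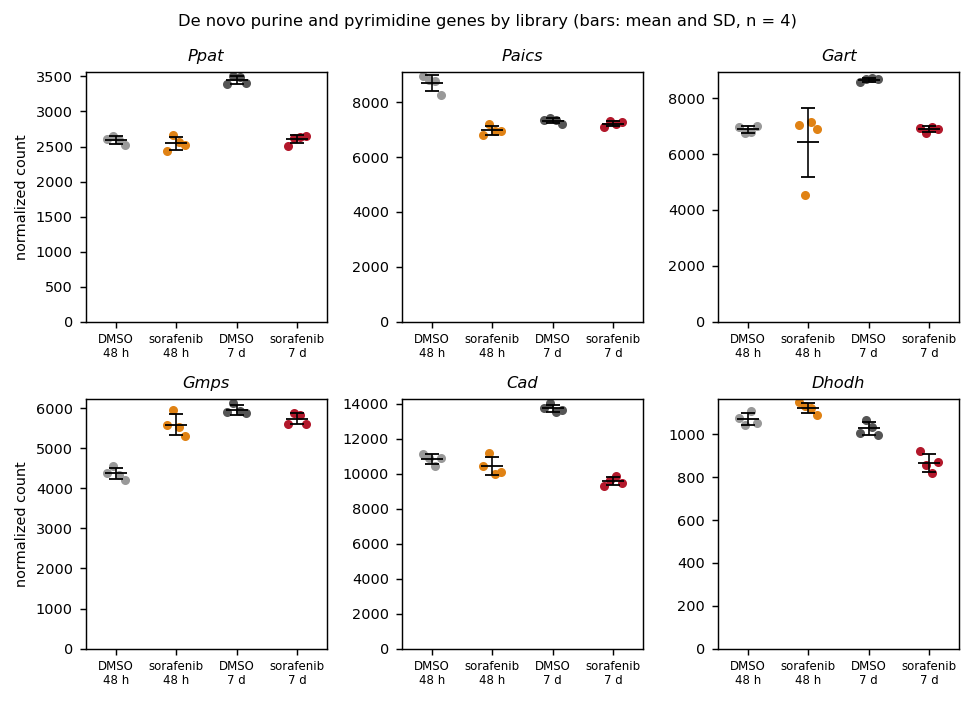
Normalized counts (y axis, from 0) of 6 de novo purine and pyrimidine genes in each of the 16 libraries (x axis, 4 groups), with the mean and SD of each group. Ppat, Gart and Cad in sorafenib at 7 days lie below all DMSO libraries of 7 days, Paics separates at 48 hours, and 1 sorafenib library of 48 hours is low for Gart.

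The early genes of the pyrimidine pathway, Cad and Dhodh, were lower after 7 days of sorafenib and, with all libraries, not called at 48 hours. Of the 5 pyrimidine genes, 1 was higher and 2 were lower at each time (1 and 3 at 48 hours and 2 and 3 at 7 days without the low library). Cad (chr5:31212111-31236418, GRCm39) encodes the trifunctional enzyme of the initial steps, and its counts at 48 hours were 11162, 10911, 10449 and 10900 with DMSO and 10443, 11170, 10014 and 10102 with sorafenib. These overlapped, with a log2 fold change of -0.06 (SE 0.034, adjusted p = 0.164). At 7 days the counts were 13751, 14054, 13564 and 13635 with DMSO and 9317, 9622, 9888 and 9505 with sorafenib, with no overlap and a log2 fold change of -0.52 (SE 0.034, adjusted p = 4.96e-11). Cad had the lowest 7 day fold change of the 5 de novo pyrimidine genes, and its response differed between times by -0.46 (SE 0.048, adjusted p = 1.88e-07). The 48 hour change of Cad was called without the low library (-0.09, adjusted p = 0.00274), and also without DMSO replicate 3 (adjusted p = 0.0157) or sorafenib replicate 1 (adjusted p = 0.0444).

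Dhodh (chr8:110317492-110335347, GRCm39), the mitochondrial enzyme of the pathway, followed Cad at a lower level. Its counts at 48 hours were 1078, 1045, 1111 and 1053 with DMSO and 1149, 1131, 1123 and 1089 with sorafenib, overlapping groups with a log2 fold change of 0.07 (SE 0.041, adjusted p = 0.178). At 7 days they were 1008, 1069, 1035 and 998 with DMSO and 920, 858, 820 and 869 with sorafenib. All 4 sorafenib libraries were then the lower ones, at a log2 fold change of -0.25 (SE 0.041, adjusted p = 2.98e-05) and an interaction of -0.32 (SE 0.058, adjusted p = 0.000205). Its DMSO level gave no called change between 48 hours and 7 days (-0.06, adjusted p = 0.244), unlike those of Ppat and Cad, which were higher at 7 days. Umps, which makes UMP, was called lower at 48 hours (-0.25 with all libraries and -0.12 without the low one, but adjusted p = 0.0679 without DMSO replicate 2) and gave -0.14 at 7 days (adjusted p = 0.204, and 1.73e-05 without that library).

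The pair of CTP synthases, which convert UTP to CTP, moved in opposite directions at 48 hours. Ctps (chr4:120395395-120471131, GRCm39) had 4617, 4600, 4532 and 4450 normalized counts with DMSO and 8375, 9283, 9027 and 8658 with sorafenib, 1.94-fold higher (log2 0.96, SE 0.035, adjusted p = 4.31e-15). At 7 days it had 7872, 8584, 8196 and 8416 with DMSO and 9067, 9375, 9231 and 9364 with sorafenib, 1.12-fold higher (log2 0.16, SE 0.034, adjusted p = 0.000351). The groups did not overlap at either time, and the interaction of -0.79 (SE 0.048, adjusted p = 8.38e-11) was the lowest among the 33 genes. Mean sorafenib levels were 8836 and 9259 at the 2 times, while the DMSO mean was 4550 at 48 hours and 8267 at 7 days.

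Ctps2 had 867, 869, 850 and 831 normalized counts with DMSO and 732, 416, 737 and 722 with sorafenib at 48 hours, with the value of 416 in the library that stood apart. It was called lower with all libraries (-0.38, adjusted p = 0.00556) and without that one (-0.23, adjusted p = 9.32e-05). At 7 days it had 527, 469, 479 and 505 with DMSO and 541, 563, 547 and 534 with sorafenib, which did not overlap, and its log2 fold change of 0.15 was called without the low library (adjusted p = 0.00865) and not with it (adjusted p = 0.285). The interaction was called either way (0.52 and 0.37).

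Of the 5 deoxynucleotide genes, 2 were higher and 3 lower at each time, with the same counts without the low library, and the subunits of ribonucleotide reductase changed in opposite directions. Rrm1, the large catalytic subunit (chr7:102090890-102119709, GRCm39), had 10650, 11010, 10637 and 10556 normalized counts with DMSO and 15507, 16328, 15633 and 15773 with sorafenib at 48 hours (log2 fold change 0.56, SE 0.027, adjusted p = 4.78e-13). The Rrm1 counts at 7 days were 14530, 15327, 15134 and 15072 with DMSO and 17678, 18178, 17819 and 17462 with sorafenib (0.24, SE 0.027, adjusted p = 1.53e-07). Every treated library was above every control of its time.

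Rrm2, the small subunit used in dividing cells (chr12:24757811-24764145, GRCm39), went the other way. It had 4815, 4748, 4550 and 4557 normalized counts with DMSO and 3598, 3668, 3809 and 3759 with sorafenib at 48 hours (-0.33, SE 0.030, adjusted p = 9.81e-09). After 7 days the Rrm2 counts were 6610, 6518, 6687 and 6595 with DMSO and 4299, 4535, 4466 and 4390 with sorafenib (-0.58, SE 0.030, adjusted p = 1.37e-12). The groups did not overlap at either time, and the 7 day response was lower by 0.25 on the log2 scale (interaction -0.25, adjusted p = 0.000104).

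Rrm2b, the alternative small subunit that can be induced by p53 and serves repair and mitochondrial DNA, had the highest fold change of the 33 genes at both times, in cells labelled p53-/-. Its counts (chr15:37924196-37961562, GRCm39) were 282, 313, 242 and 286 with DMSO and 922, 594, 982 and 977 with sorafenib at 48 hours, where 594 belongs to the low library. This was 3.11-fold (log2 1.64, SE 0.12, adjusted p = 2.75e-10), and 1.77 on the log2 scale without that library. After 7 days its counts were 325, 374, 338 and 378 with DMSO and 803, 854, 876 and 808 with sorafenib, 2.36-fold higher (log2 1.24, SE 0.11, adjusted p = 1e-08). The interaction of -0.40 was not called with all libraries (adjusted p = 0.0664) and was called without the low one (-0.53, adjusted p = 9.59e-07). The p53 target Cdkn1a was also higher with sorafenib at both times (log2 1.86 and 2.26, and 2.01 at 48 hours without the low library), from DMSO means of 37.8 and 37.5 normalized counts. Trp53 RNA itself was lower with sorafenib at 48 hours (means of 3690 with DMSO and 1843 with sorafenib, adjusted p = 9.86e-12) and higher at 7 days (2128 and 2570, adjusted p = 0.000437).

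Both genes of thymidylate supply were lower at both times. Tyms, thymidylate synthase, gave log2 fold changes of -0.42 and -0.41, and Dut, which removes dUTP and provides the substrate of Tyms, gave -0.39 and -0.47. Neither had a called interaction (0.01 and -0.08, adjusted p = 0.903 and 0.456). Tyms had 2340 to 2551 normalized counts in the DMSO libraries of 48 hours against 1663 to 1961 with sorafenib, and 2450 to 2543 against 1822 to 1923 at 7 days. Dut had 3341 to 3924 against 2537 to 2950 at 48 hours and 3857 to 4004 against 2577 to 2985 at 7 days, so that the groups of both genes were separate at both times.

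**Figure D3:**
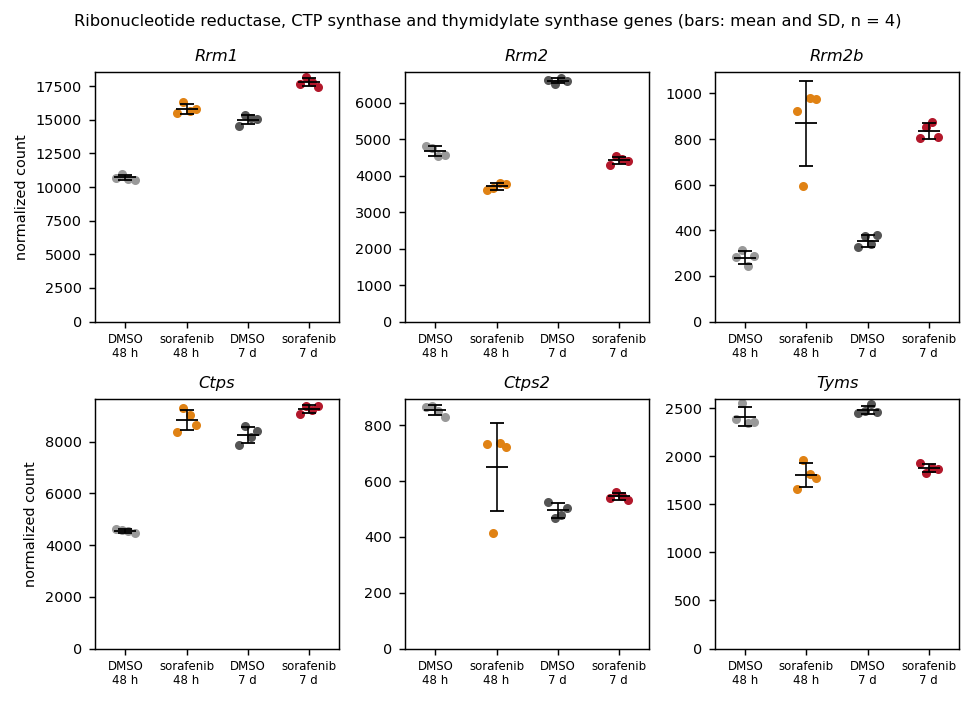
Normalized counts (y axis, from 0) of the ribonucleotide reductase subunits, the CTP synthases and thymidylate synthase in each of the 16 libraries, with the mean and SD of each group. Rrm1 and Rrm2b are higher and Rrm2 and Tyms lower with sorafenib at both times, and Ctps in DMSO at 7 days lies near its sorafenib level of 48 hours.

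The nucleoside diphosphate kinases, which exchange phosphate among nucleoside di- and triphosphates, differed from each other. Nme1 was called lower at both times (-0.11 and -0.45), and its levels at 7 days were 7091 to 7261 with DMSO and 5199 to 5262 with sorafenib. Nme2 was higher at 48 hours (0.21, adjusted p = 0.00019) and gave 0.01 at 7 days (95% confidence interval -0.07 to 0.10). The interaction was called for both (-0.35 and -0.19), and for Nme2 the call was lost without DMSO 48 hours replicate 4 or sorafenib 48 hours replicate 1 (adjusted p = 0.0604 and 0.052). These neighboring genes are similar in sequence, and how reads that match both were counted is not given in the sources used here, so the split between them is uncertain.

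Of the 6 salvage enzymes, 3 were called lower, 1 higher and 2 not called at 48 hours, and 5 were called lower and 1 higher at 7 days. Without the low library Hprt was higher in place of Tk2 at 48 hours, and the counts were the same. Aprt, which returns adenine to AMP, had 5687, 5291, 5370 and 5358 normalized counts with DMSO and 4038, 4211, 3744 and 3818 with sorafenib at 48 hours (-0.46, SE 0.039, adjusted p = 2.81e-09). The 7 day counts of Aprt were 5328, 5042, 5310 and 5320 with DMSO and 3024, 3147, 3241 and 3088 with sorafenib, a log2 fold change of -0.75 (SE 0.039, adjusted p = 1.27e-12), the lowest of the 33 genes at 7 days. The groups were separate at both times, and the interaction was -0.29 (adjusted p = 0.000251).

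Hprt, which salvages hypoxanthine and guanine, gave -0.07 at 48 hours (0.09 without the low library, adjusted p = 0.0176) and was called lower at 7 days (-0.35, SE 0.11, adjusted p = 0.00754). Uck2, a uridine and cytidine kinase, was lower at both times (-0.08 and -0.41), with 9568 to 9777 normalized counts in DMSO and 7151 to 7404 in sorafenib libraries at 7 days. Its interaction of -0.33 was called (adjusted p = 1.71e-06). The cytosolic thymidine kinase Tk1 was lower at both times (-0.47 and -0.31) and the mitochondrial Tk2 higher (0.22 and 0.29), although the 48 hour call of Tk2 was lost without any single DMSO library of that time and without sorafenib replicate 2 or 4 (adjusted p from 0.0508 to 0.105). Dck, deoxycytidine kinase, gave -0.07 (adjusted p = 0.123) and -0.15 (adjusted p = 0.00118), and its 48 hour change was called without DMSO replicate 3 or 4 or sorafenib replicate 1 or 4 (adjusted p from 0.00906 to 0.037).

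Of the 4 pentose phosphate genes, G6pdx, Pgd and Tkt were lower and Taldo1 was higher at 48 hours, and Pgd and Tkt were lower and Taldo1 higher at 7 days (G6pdx lower too without the low library). G6pdx, glucose-6-phosphate dehydrogenase at the entry of the pathway (chrX:73449857-73472819, GRCm39), had 2914, 2933, 2950 and 3151 normalized counts with DMSO and 2040, 1337, 2067 and 2080 with sorafenib at 48 hours. The value of 1337 belongs to the low library, and the log2 fold change was -0.66 with it (adjusted p = 1.93e-06) and -0.53 without it (adjusted p = 2.67e-20). At 7 days G6pdx had 2331, 2287, 2378 and 2281 with DMSO and 2118, 2071, 2024 and 2008 with sorafenib, which did not overlap. That change of -0.17 was not called with all 16 libraries (adjusted p = 0.0965) and was called without the low one (-0.18, adjusted p = 8.42e-07). The interaction was called with and without it (0.49 and 0.36).

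Pgd, 6-phosphogluconate dehydrogenase, was lower at both times (-0.48 and -0.37), from 4787 to 4960 normalized counts in DMSO to 3445 to 3546 in sorafenib libraries at 48 hours, and from 6107 to 6382 to 4730 to 4910 at 7 days. Tkt, transketolase of the non-oxidative branch, was lower by a like amount (-0.41 and -0.37), with an interaction of 0.04 (95% confidence interval -0.04 to 0.11). Taldo1 (chr7:140972053-140982886, GRCm39), transaldolase of the same branch, had 2306, 2259, 2220 and 2184 normalized counts with DMSO and 4249, 4207, 4225 and 3941 with sorafenib at 48 hours, 1.85-fold higher (log2 0.89, SE 0.037, adjusted p = 3.97e-14). The 7 day counts of Taldo1 were 2708, 2901, 2881 and 2970 with DMSO and 3432, 3572, 3706 and 3602 with sorafenib, a smaller difference (log2 0.32, SE 0.036, adjusted p = 2.2e-07). All treated libraries were above the controls, and the 2 responses differed by -0.57 (adjusted p = 3.07e-08).

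**Figure D4:**
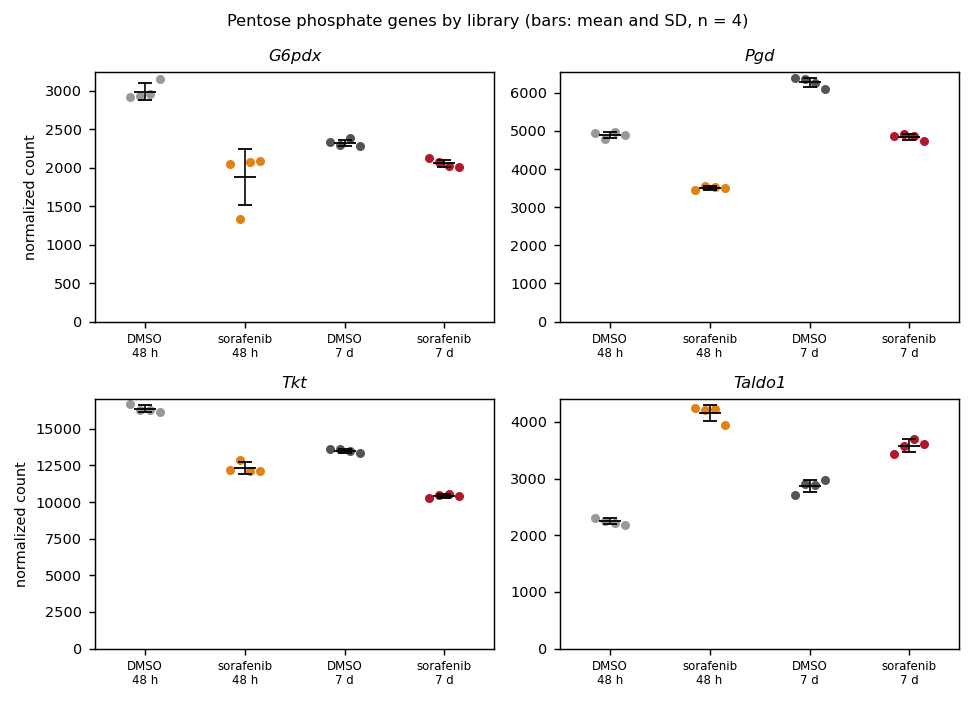
Normalized counts (y axis, from 0) of the 4 pentose phosphate genes in each of the 16 libraries (x axis, 4 groups), with the mean and SD of each group. Pgd and Tkt are lower and Taldo1 is higher with sorafenib at both times, and 1 sorafenib library of 48 hours is low for G6pdx.

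The vehicle groups differed from each other as well. In DMSO at 7 days against DMSO at 48 hours, 19 of the 33 genes were called higher and 8 lower, where 49.4% of all tested genes were called (23.9% higher and 25.5% lower). Libraries of the 2 times did not overlap for 28 genes (20 higher and 8 lower at 7 days), where this held for 50.8% of all tested genes (24.9% higher and 25.9% lower). The calls of Prps2, Adsl, Umps, Rrm2b and Tk1 were each lost when 1 of several DMSO libraries was left out, with adjusted p between 0.0504 and 0.126. Prps2, Adsl, Umps and Rrm2b lie in the lowered stretch, and the low sorafenib library shares the estimate of spread. Without that library, 21 genes were called higher and 8 lower, and the calls of Prps2, Adsl, Umps, Rrm2b and Tk1 held (edgeR adjusted p from 3.3e-12 to 0.00103). The median log2 difference was 0.18 over the 33 genes and -0.01 over all tested genes. The highest was that of Ctps (0.86) and the lowest that of Ctps2 (-0.79), and Nme1 (0.58), Rrm2 (0.50), Rrm1 (0.49), Gmps (0.45) and Ppat (0.41) were among the higher ones. This comparison shares its DMSO libraries with both sorafenib comparisons, so its values stand beside theirs and are not independent of them. Summed over the 33 genes, normalized counts were 150227 ± 2351 in DMSO and 149076 ± 682 in sorafenib at 48 hours, and 172308 ± 1295 and 151946 ± 1937 at 7 days (SD, n = 4).

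**Figure D5:**
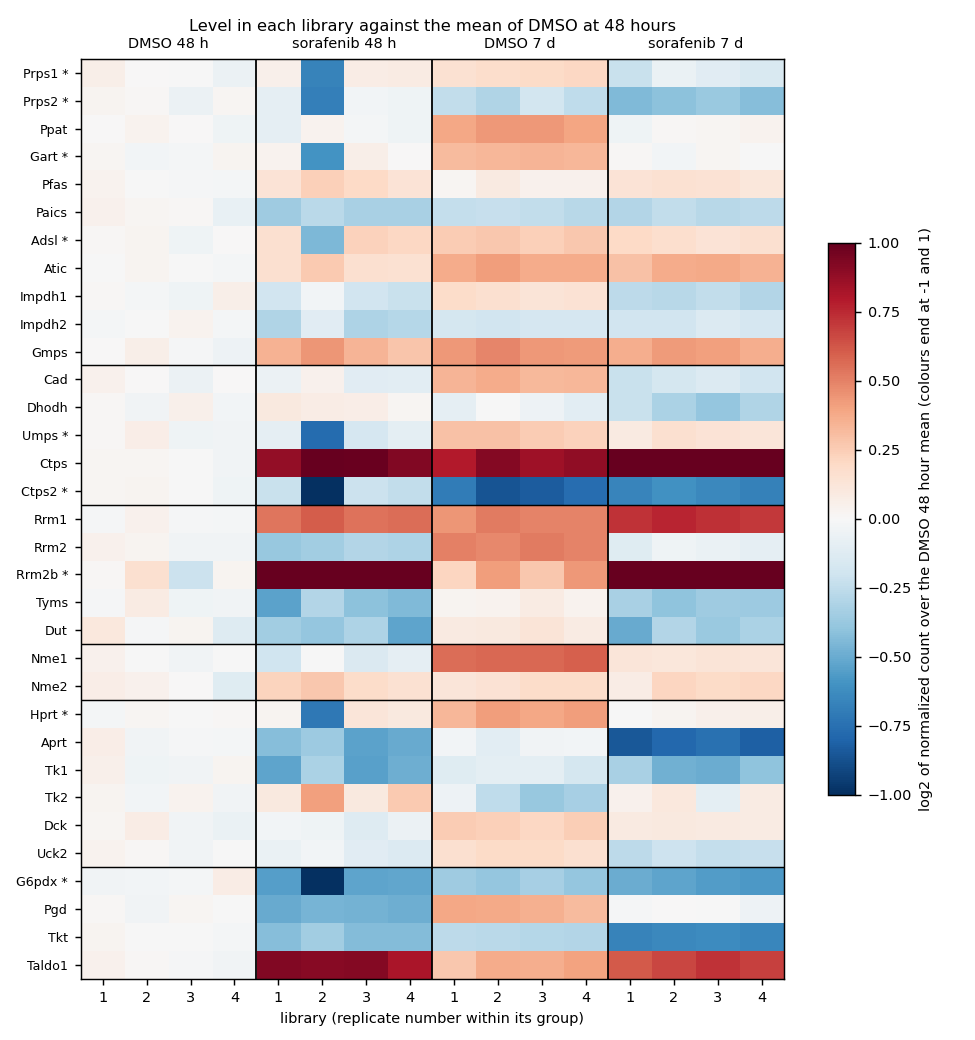
Level of each of the 33 genes (rows, by pathway) in each of the 16 libraries (columns, by group), as the log2 ratio of its normalized count to the mean of the DMSO libraries at 48 hours, in colors that end at -1 and 1. Blue cells of the asterisked genes other than Rrm2b in sorafenib 48 hours replicate 2 show the library that stood apart. The Rrm2b cell of that library is red, since its count was still above the DMSO mean. Red Ppat, Cad, Ctps, Rrm1 and Nme1 cells show the DMSO libraries of 7 days above those of 48 hours.

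Ratios between isozymes, which need no scaling between libraries, were compared for 6 pairs at 2 times with exact two-sided permutation tests (12 comparisons, n = 4 per group, smallest possible p = 0.0286, adjusted p = 0.0381). Values are counts per kilobase of the Ensembl canonical transcript. Rrm2b and Ctps2 lie in the lowered stretch and Rrm2 and Ctps do not, so the low library shifts the 48 hour ratios of these 2 pairs. The Rrm2 to Rrm2b ratio was 29.2 in DMSO and 7.61 in sorafenib libraries at 48 hours, and 32.6 and 9.26 at 7 days, with no overlap and the smallest possible p at both times. Its log2 difference at 48 hours was -1.94, and -2.11 without the low library. The Ctps to Ctps2 ratio was 15.8 and 41.2 at 48 hours (smallest possible p, a log2 difference of 1.39, and 1.16 without the low library) and 49.5 and 50.2 at 7 days (exact permutation p = 0.8). The Tk1 to Tk2 ratio was lower with sorafenib at both times (log2 differences -0.69 and -0.59), as was the Nme1 to Nme2 ratio (-0.32 and -0.47), each at the smallest possible p. The ratios of Impdh1 to Impdh2 and of Prps1 to Prps2 were lower at 7 days (-0.43 and -0.16, at the smallest possible p), and gave 0.10 and 0.09 at 48 hours (adjusted exact permutation p = 0.0686 and 0.0935).

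Per kilobase of canonical transcript, the order of levels in DMSO at 48 hours ran from Nme2 (6503 ± 366 normalized counts per kilobase) through Aprt (5213 ± 170), Tkt (5066 ± 75.2) and Impdh2 (3279 ± 57.8) down to Tk2 (136 ± 3.5), Ctps2 (106 ± 2.2) and Rrm2b (61.3 ± 6.4; SD, n = 4), a 106-fold range. Of the 32 pairs of neighbors in that order, 12 had overlapping libraries, among them Aprt with Tkt, Rrm2 with Taldo1 and Ppat with Dck. At 7 days of sorafenib, Rrm1 stood at 3752 and Ctps at 3400 per kilobase. A different transcript in use would change these levels and the isozyme ratios, but not the fold changes.

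Other genes of these pathways, taken from lists of names, were called in both directions, as were all tested genes. Beside the counts of all lists below, 26.9% of all tested genes were called higher and 27.7% lower at 48 hours. At 7 days these shares were 28.9% and 27.9%. Of 25 tested further purine genes, 7 were higher and 7 lower at 48 hours and 10 and 9 at 7 days. Among them the adenylate kinase Ak5 was higher at both times (log2 1.91 and 0.88, SE 0.037 and 0.036, DMSO means 884 and 1092). Ak4, its mitochondrial relative, was lower at both times (-1.17 and -1.27). Gmpr, which converts GMP back to IMP, was lower at 7 days (-1.94, SE 0.049), from a mean of 2597 to 674 normalized counts. Of 24 further pyrimidine and deoxynucleotide genes, 10 were higher and 9 lower at 48 hours and 9 and 8 at 7 days, among them Uckl1 (0.85 and 1.37) and Nme3 (-1.64 and -1.70, and -1.46 at 48 hours without the low library).

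Of 6 further pentose phosphate genes, 4 were higher at 48 hours with the others not called, and 4 were higher and 1 lower at 7 days. Pgls, the lactonase between G6pdx and Pgd in the oxidative branch, was higher at both times (0.17 and 0.55), as was H6pd, the glucose-6-phosphate dehydrogenase of the endoplasmic reticulum (0.34 and 0.26). Rpia, which makes ribose 5-phosphate, was higher at 48 hours (0.23) and lower at 7 days (-0.71, SE 0.041). Of 10 folate genes, whose products carry the carbon units for purines and thymidylate, 3 were higher and 5 lower at 48 hours and 2 and 4 at 7 days. The folate receptor Folr1 fell from a mean of 932 to 169 normalized counts at 7 days (-2.47, SE 0.069), and Shmt1 was lower at both times (-0.42 and -0.78). Of 4 tested nucleoside transporters, 2 were higher and 2 lower at 48 hours and 2 and 1 at 7 days, with Slc29a1 higher (0.46 and 1.07) and Slc29a2 lower (-0.68 and -0.78) at both times. Both lie in the lowered stretch, and without the low library their 48 hour values were 0.60 and -0.57.

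Regulators of nucleotide genes and markers of proliferation moved alongside, and their part in the results was not tested. Of all tested genes, 26.9% were called higher and 27.7% lower at 48 hours, and 28.9% and 27.9% at 7 days. Of 11 regulators, 4 were higher and 5 lower at 48 hours and 5 and 5 at 7 days. Myc RNA, in which the introduced and the native gene cannot be told apart, was lower (-0.56 and -0.51, and -0.42 at 48 hours without the low library), and Atf4, a stress-response factor, was higher (1.60 and 0.97, and 1.72 at 48 hours without the low library). Of 12 proliferation genes, 8 were lower and 1 higher at 48 hours and 11 lower and 1 higher at 7 days, with the same counts without the low library. Mki67 gave -0.61 and -0.80, and Mcm2 was the higher one (0.40 and 0.38). Ccna2, Ccnb1 and Cdk1 were the 3 with no call at 48 hours (0.01, -0.04 and -0.05), and they were lower at 7 days (-0.32, -0.35 and -0.28).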

How the data were processed

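Per the labels, libraries were made with the Illumina Stranded mRNA kit. The authors aligned the reads with STAR 2.7.1a to GRCm39 and counted them per gene with featureCounts 2.0.6. The deposited values are raw counts of 40840 genes with no normalization. The gene annotation, the strand setting and the treatment of multi-mapped reads are not given in the sources used here, and the dose is from the study's methods.

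Genes with at least 10 counts over the 16 libraries were tested (20444, with 20396 removed) with edgeR 4.0.16 in R 4.3.3 (TMM factors, quasi-likelihood F test). Each group of treatment and time had a coefficient, all libraries shared an estimate of spread, and p-values were adjusted by Benjamini-Hochberg over all tested genes, with a call under 0.05. Normalized counts are counts over the TMM-scaled library size times 25134238. Isozyme ratios were tested with scipy 1.17.1. Positions are from GENCODE vM39 (Ctps and Hprt matched as synonyms through RefSeq), with 1 position for 32393 genes.

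The fit was tested on simulated data with known changes at 48 hours. Of 50 genes changed 1.25-fold, 36 were recovered, and 49 of 50 at 1.5-fold. All 50 were recovered at 2-fold and at 4-fold, with 10 false calls over 20055 genes. Smaller changes can therefore be missed, and the simulated counts held no lowered stretch. Alternatives were DESeq2 1.42.0, its size factors, total counts, limma 3.58.1 voom with quality weights, other filters, a fold threshold, a replicate block, the libraries of 1 time alone, an offset for the lowered stretch and each library left out. Replicates were not copies of each other (lowest chi-square per gene 1.58). This measure was 53.1 to 71.6 between DMSO 7 days replicate 4 and its group, and 32.6 to 38.0 for sorafenib 48 hours replicate 2. Among DMSO libraries of 48 hours it was 5.09 to 42.7. The SD of log2 ratios was 0.152 to 0.160 for DMSO 7 days replicate 4 and 0.334 to 0.336 for sorafenib 48 hours replicate 2. The 33 genes, the lists and the tests were chosen with earlier results of these data known. All 33 genes are described by name. Of the other pathway lists, the 3 called genes with the largest absolute log2 fold change at each time and a mean of at least 100 normalized counts could be named, and regulators, proliferation genes and markers were given as values beside the results. One gene that this rule would name is not reported here.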

Additional observations from a re-analysis of the deposited data

Results flagged for a closer look

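Among 132 sets of 4 replicates (33 genes in 4 groups), 18 had a library far from the other 3 by Dixon's test, where chance gives about 1 in 20. Of these, 13 concerned sorafenib 48 hours replicate 2. Its normalized counts were low for the 9 genes of the lowered stretch: Prps1 1154, Prps2 1287, Gart 4552, Adsl 2132, Umps 1840, Ctps2 416, Rrm2b 594, Hprt 1341 and G6pdx 1337. They were high for Atic (8185), Impdh1 (2534), Impdh2 (5636) and Tkt (12894), which lie outside it. In DMSO 7 days replicate 2, Atic (9140) and Gmps (6139) were high and Aprt (5042) was low. G6pdx was high in DMSO 48 hours replicate 4 (3151), and Taldo1 was low in sorafenib 48 hours replicate 4 (3941). The origin of these values was not tested.

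For 19 genes the response to sorafenib differed between the 2 times by the interaction test. The 7 day minus the 48 hour log2 fold change was negative for Ppat (-0.38), Atic (-0.22), Impdh1 (-0.27), Gmps (-0.41), Cad (-0.46), Dhodh (-0.32), Ctps (-0.79), Rrm1 (-0.32), Rrm2 (-0.25), Nme1 (-0.35), Nme2 (-0.19), Aprt (-0.29), Uck2 (-0.33) and Taldo1 (-0.57). It was positive for Paics (0.30), Impdh2 (0.25), Ctps2 (0.52), G6pdx (0.49) and Pgd (0.11). Of these 19 genes, Ctps2 and G6pdx lie in the lowered stretch, and their differences without the low library were 0.37 and 0.36. The call of Pgd was lost without DMSO 7 days replicate 3 or 4 or sorafenib 7 days replicate 2 or 3 (edgeR adjusted p from 0.0542 to 0.0741).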

How the results depend on the processing

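Counts of called genes kept within 1.5 times their value under every alternative other than the fold threshold and the replicate block. A further threshold, that the log2 fold change exceed 1 in size, left 1 gene higher and 0 lower at 48 hours and 1 higher and 0 lower at 7 days (Rrm2b), and 0 and 0 for the interaction and 0 and 0 for DMSO over time. Without that threshold edgeR called 9 and 15, 6 and 17, 5 and 14, and 19 and 8. Same-numbered replicates shared little deviation (mean correlations -0.009 between treatments at 48 hours, 0.068 at 7 days and -0.11 between the 2 DMSO times). Those of different numbers had means of 0.003, -0.022 and 0.035. These values show no clear pairing by number, but 4 same-numbered pairs per comparison cannot exclude one. With the replicate block, DMSO over time gave 12 higher and 4 lower (against 19 and 8), and sorafenib gave 9 and 15 at 48 hours and 6 and 17 at 7 days, and the interaction 4 and 14. Leaving out each library in turn gave 8 to 10 higher and 14 to 17 lower at 48 hours, 6 to 7 and 17 to 21 at 7 days, 4 to 6 and 13 to 20 for the interaction and 16 to 21 and 6 to 8 for DMSO over time. The median over the 33 genes at 48 hours ranged from -0.17 to -0.075 with libraries left out, and was -0.15 with total counts, -0.045 with no filter and -0.12 with at least 10 counts in every library.

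The sign of some uncalled values changed, and the cause was not tested. At 48 hours, voom weights and the offset gave 0.031 and 0.037 for Prps1, 0.0031 and 0.019 for Gart and 0.054 and 0.042 for Hprt. Total counts gave -0.0068 for Adsl and -0.0037 for Dhodh, and no filter gave 0.013 for Ppat. Leaving out libraries gave -0.17 to 0.069 for Prps1, -0.18 to 0.031 for Gart, -0.021 to 0.20 for Adsl and -0.17 to 0.085 for Hprt. At 7 days, Paics gave 0.0016 with total counts, 0.0019 with no filter and 0.0048 with at least 10 counts in every library. Impdh2 gave -0.0096 with the offset, -0.0021 with the libraries of 7 days alone and -0.0078 to 0.0093 with libraries left out. For the interaction, Prps2 gave -0.0054 with no filter, -0.093 with voom, -0.12 with the offset and -0.12 to 0.097 with libraries left out. Total counts gave 0.0029 for Pfas, 0.014 for Dut and 0.013 for Dck, the offset gave -0.015 for Umps and no filter -0.0023 for Tyms. Leaving out libraries gave -0.018 to 0.20 for Umps and -0.016 to 0.055 for Tyms. For DMSO over time, total counts gave -0.0092 for Pfas and -0.015 for Tyms, and the block -0.0427 for Dut. The Ctps to Ctps2 log2 ratio difference at 7 days (0.02) ranged from -0.033 to 0.064 with libraries left out. No called gene changed direction under these alternatives, and, the fold threshold aside, the lost calls of sorafenib and of the interaction were those of Umps, Ctps2, Nme1, Tk2 and Uck2 at 48 hours and of Atic, Nme2 and Pgd for the interaction. Precision is limited by 4 libraries per group.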
